A study of Rattus norvegicus with 18 samples.

Results

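Interferon-stimulated genes are transcribed when a cell responds to interferon. The report covers 47 such genes, listed by symbol, in mucosal scrapings of the rat jejunum, a segment of the small intestine that absorbs nutrients. A gene was measured where a probe set (the group of probes that reads 1 transcript) carried exactly 1 gene symbol equal to the listed one, and the brightest such probe set stood for the gene. That gave 42 members among 14217 genes, and Ddx58, Gbp5, Oasl2, Samd9l and Xaf1 were not analysed here. RNA was hybridised to 18 Affymetrix arrays, 3 for each of 6 groups of male Sprague Dawley rats aged 6 to 8 weeks and gavaged once a day. The groups were palbociclib at 30 mg/kg/day, palbociclib at 100 mg/kg/day, abemaciclib at 36 mg/kg/day, abemaciclib at 120 mg/kg/day, ribociclib at 300 mg/kg/day and vehicle. Palbociclib, abemaciclib and ribociclib are inhibitors of CDK4 and CDK6, which drive entry into S phase, and the study asked whether their intestinal toxicity follows from that action. The vehicle rats had methyl cellulose, in which palbociclib was also given, whereas abemaciclib and ribociclib were given in a tween and citrate formulation. Set against vehicle or palbociclib, the effect of either of these compounds and that of its formulation cannot be told apart. The design names more rats per group than arrays and dosing for 4 or 15 days, without saying which animals or which duration an array came from, and the title of array B of abemaciclib 120 names a different dose from its treatment label, which was followed. The p-values therefore measure the spread between these arrays, and the number of arrays limits the precision.

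Type I interferons bind the receptor made of IFNAR1 and IFNAR2, whose kinases JAK1 and TYK2 phosphorylate transcription factors such as STAT2. STAT2 and IRF9 belong to a complex that binds the interferon-stimulated response element (ISRE), while interferon gamma acts through JAK1 and JAK2 on the gamma-activated site (GAS). The induced proteins sense and degrade viral RNA, block virus release, tag proteins with ISG15, present antigen and attract lymphocytes. In the intestine, epithelial cells and the immune cells within and beneath the epithelium can both express them.

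Signal is given as log2 units as deposited. The array medians over all probe sets lay between 5.41 and 5.51, and the members' mean signals over all arrays lay between 4.05 for Cxcl9 and 11.66 for Psmb8. Cxcl9, Gbp4 and Ifit2 had mean signals below the array medians, and with no detection calls used here their differences rest on signals not shown to be above background. The mean level of 7 jejunal enterocyte markers was 12.68 to 13.14 with abemaciclib 120, 13.10 to 13.61 with ribociclib 300 and 13.30 to 13.61 with vehicle. The words rose and fell are kept for members whose adjusted p in limma, corrected over all 14217 genes, was under 0.05 for that comparison.

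Signal of the members varied across the 6 groups. In limma's F test over the groups, 15 of the 42 members passed, where 22.6% of all genes passed. They were Irf1, Irf7, Ifih1, Oas1a, Oasl, Rsad2, Cmpk2, Isg15, Herc6, Parp14, Igtp, Psmb8, Ifi27, Ifi35 and Ifi44l. The members' median difference from the vehicle mean, taken array by array, was -1.23, -0.80 and -1.05 in abemaciclib 120 arrays A, B and C. It was -0.48, 1.38 and 0.74 with ribociclib 300, and -0.26, -0.19 and -0.87 with abemaciclib 36. It was -0.28, -0.15 and -0.53 with palbociclib 100, 0.16, 0.84 and -0.44 with palbociclib 30, and -0.13, 0.03 and 0.12 with vehicle. All abemaciclib 120 arrays except B lay below every other array by this measure, and array B lay between arrays C and A of abemaciclib 36, while the ribociclib arrays spanned both sides of vehicle. The heat map by array shows this gene by gene.

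**Figure D1:**
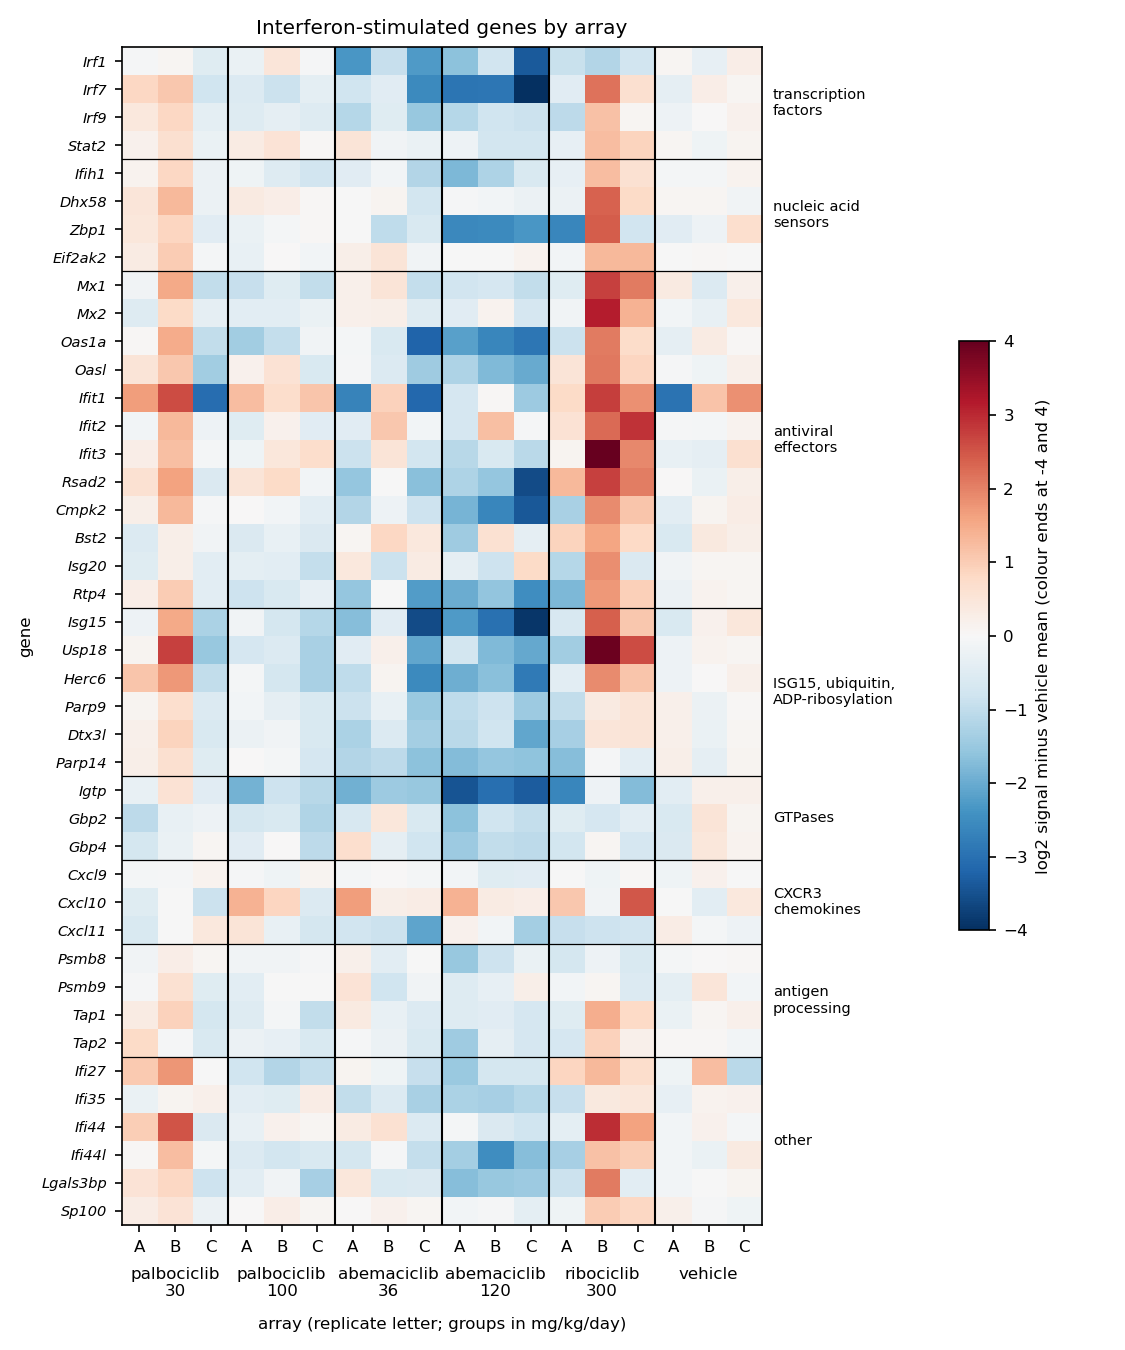
Log2 signal of the 42 members (rows, grouped by role) minus the vehicle mean of each gene on the 18 arrays (columns, letters A to C within group), blue below and red above the vehicle mean. Abemaciclib 120 is blue for most members on all 3 arrays (array medians -1.23, -0.80 and -1.05), and ribociclib 300 is red on arrays B and C (1.38 and 0.74) and mostly blue on array A (-0.48).

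With abemaciclib at 120 mg/kg/day, 18 of the 42 members fell against vehicle and 0 rose in limma. Of all genes, 8.41% fell and 9.6% rose. At an unadjusted p under 0.05, 24 members were lower and 0 higher, where 14.2% of all genes were lower and 15.5% higher. The members' median log2 difference was -1.03, against -0.02 for all genes. All 3 abemaciclib arrays lay below all 3 vehicle arrays for 28 members, where the same held for 18.7% of all genes. The estimate was below 0 for 39 members, and the exceptions were Eif2ak2, Ifit2 and Cxcl10, none of which passed the test.

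Of the 4 transcription factors, 2 fell, Irf7 and Irf1. Irf7, which drives further interferon production, had signals of 7.92, 7.94 and 6.84 in abemaciclib 120 arrays A, B and C, against 10.47, 11.09 and 10.92 in vehicle. All its abemaciclib 120 arrays were low and did not overlap vehicle, and the log2 difference was -3.26 (SE 0.63, adjusted p = 0.00191, 9.60-fold lower). Irf1, a factor induced strongly by interferon gamma, had 9.04, 9.89 and 7.32 with abemaciclib 120, against 10.74, 10.34 and 10.94 with vehicle. Array C was the lowest and array B came within a log2 unit of vehicle, with a difference of -1.92 (SE 0.49, adjusted p = 0.0118). Irf9 and Stat2, partners in the ISRE-binding complex, had differences of -0.93 (SE 0.42, adjusted p = 0.15) and -0.56 (SE 0.34, adjusted p = 0.314) and did not pass. For both, all abemaciclib 120 arrays lay below all vehicle arrays.

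Among the 4 sensors of nucleic acids, Ifih1 (the RNA sensor MDA5) fell by 1.22 on the log2 scale (adjusted p = 0.0405). Zbp1, which binds Z-form nucleic acids, fell by 2.48 (SE 0.80, adjusted p = 0.0413). Its signal was 6.69, 6.73 and 6.93 with abemaciclib 120, against 8.80, 9.05 and 9.93 with vehicle, so the abemaciclib arrays lay close together and the groups did not overlap. Dhx58 (LGP2) and Eif2ak2 (the kinase PKR) had differences of -0.13 and 0.04, and their arrays overlapped vehicle.

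Of the 12 antiviral effectors, 4 fell, Cmpk2, Rsad2, Oas1a and Oasl. Cmpk2, a mitochondrial nucleotide kinase, had 7.90, 7.17 and 6.39 with abemaciclib 120, against 9.35, 9.88 and 10.08 with vehicle. The groups were far apart, with a difference of -2.61 (SE 0.61, adjusted p = 0.00679). Rsad2, the antiviral enzyme viperin, had 9.37, 9.04 and 7.02 with abemaciclib 120, against 10.62, 10.32 and 10.84 with vehicle, a difference of -2.12 (SE 0.61, adjusted p = 0.0246). Array C was well below A and B, and all 3 lay below vehicle. The oligoadenylate synthetase Oas1a fell by 2.57 and its relative Oasl by 1.67 on the log2 scale. Mx1, a dynamin-like GTPase that blocks viral ribonucleoproteins, had 5.21, 5.30 and 4.99 with abemaciclib 120, against 6.32, 5.42 and 6.18 with vehicle (difference -0.81, adjusted p = 0.492). Its abemaciclib arrays were all lower, but vehicle array B was close to them. The other effectors that did not pass, Mx2, Ifit1, Ifit2, Ifit3, Bst2, Isg20 and Rtp4, had differences between -2.01 for Rtp4 and 0.17 for Ifit2.

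All 6 members of the group around ISG15, ubiquitin and ADP-ribosylation had every abemaciclib 120 array below every vehicle array, and 3 of them fell. Isg15, the ubiquitin-like protein that is attached to other proteins, had 8.62, 7.92 and 7.0 with abemaciclib 120, against 10.28, 11.06 and 11.35 with vehicle. The difference was -3.05 (SE 0.82, adjusted p = 0.016, 8.29-fold lower), with no overlap. Parp14, an ADP-ribosyltransferase, had 8.69, 8.86 and 8.79 with abemaciclib 120, against 10.65, 10.07 and 10.52 with vehicle. Its abemaciclib 120 arrays were nearly equal, and the difference was -1.63 (SE 0.36, adjusted p = 0.00534). Herc6, which in mouse conjugates ISG15, fell by 2.15. Parp9 and Dtx3l, which act together as a complex, and Usp18, the protease that removes ISG15, had differences of -1.10, -1.31 and -1.51 with adjusted p of 0.0564, 0.0604 and 0.413.

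All 3 members listed as interferon-inducible GTPases, Igtp, Gbp2 and Gbp4, fell. The dynamin-like GTPase Mx1 and its relative Mx2, listed among the antiviral effectors, did not pass. Igtp, an immunity-related GTPase that acts on pathogen-containing vacuoles, had 5.04, 5.48 and 5.17 with abemaciclib 120, against 8.08, 8.70 and 8.69 with vehicle. The groups were far apart and Igtp had the smallest p of the members, with a difference of -3.26 (SE 0.46, adjusted p = 0.00022, 9.56-fold lower). The guanylate-binding proteins Gbp2 and Gbp4 fell by 1.13 and 1.16 on the log2 scale, Gbp4 at a dim signal. Its abemaciclib 120 signals were 3.72, 4.17 and 4.13, against 4.58, 5.61 and 5.29 in vehicle.

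Of the chemokines that bind CXCR3, a receptor of activated T and natural killer (NK) cells, Cxcl9 passed with a difference of -0.34 (adjusted p = 0.0492). Its mean signal over all arrays was the lowest of the members. It read 4.03, 3.66 and 3.68 with abemaciclib 120 and 3.97, 4.31 and 4.12 with vehicle, and the groups overlapped. Cxcl10 had 6.63, 5.58 and 5.50 with abemaciclib 120, against 5.24, 4.83 and 5.65 with vehicle (difference 0.66, SE 0.59, adjusted p = 0.521). The overlap was again present, with abemaciclib array A highest, and Cxcl11 had a difference of -0.43 (adjusted p = 0.561).

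Among the 4 genes of antigen processing, Psmb8 fell. It encodes a catalytic subunit of the immunoproteasome and had 10.41, 11.08 and 11.63 with abemaciclib 120, against 11.84, 11.93 and 11.97 with vehicle. Array C came close to vehicle and array A was the lowest, with a difference of -0.87 (SE 0.24, adjusted p = 0.018). Psmb9, another subunit, and the peptide transporters Tap1 and Tap2 had differences of -0.20, -0.55 and -0.82 and did not pass. Of the remaining 6 members, Ifi35 fell by 1.25 (SE 0.32, adjusted p = 0.0126) and Ifi44l by 1.85 (adjusted p = 0.0217). Ifi35, an interferon-induced protein that pairs with NMI, had 8.94, 8.87 and 9.08 with abemaciclib 120, against 9.90, 10.34 and 10.40 with vehicle. These values were tight in both groups and did not overlap. Ifi27, Ifi44, Lgals3bp and Sp100 had differences between -1.55 and -0.19.

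The number of members that fell against vehicle with abemaciclib 120 depended on single arrays, though 0 rose in any of these fits. It was 10 without abemaciclib 120 array A, 11 without array B and 10 without array C. It was 11 without vehicle array A, 10 without array B and 4 without array C. Of all genes, 9.49%, 17.6% and 14.6% passed in either direction without abemaciclib 120 arrays A, B and C. Without vehicle arrays A, B and C the shares were 12.6%, 13.6% and 10.4%. The 4 of 42 members without vehicle array C were near that last share. Irf7, Cmpk2, Parp14 and Igtp passed in all 6 of these fits.

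**Figure D2:**
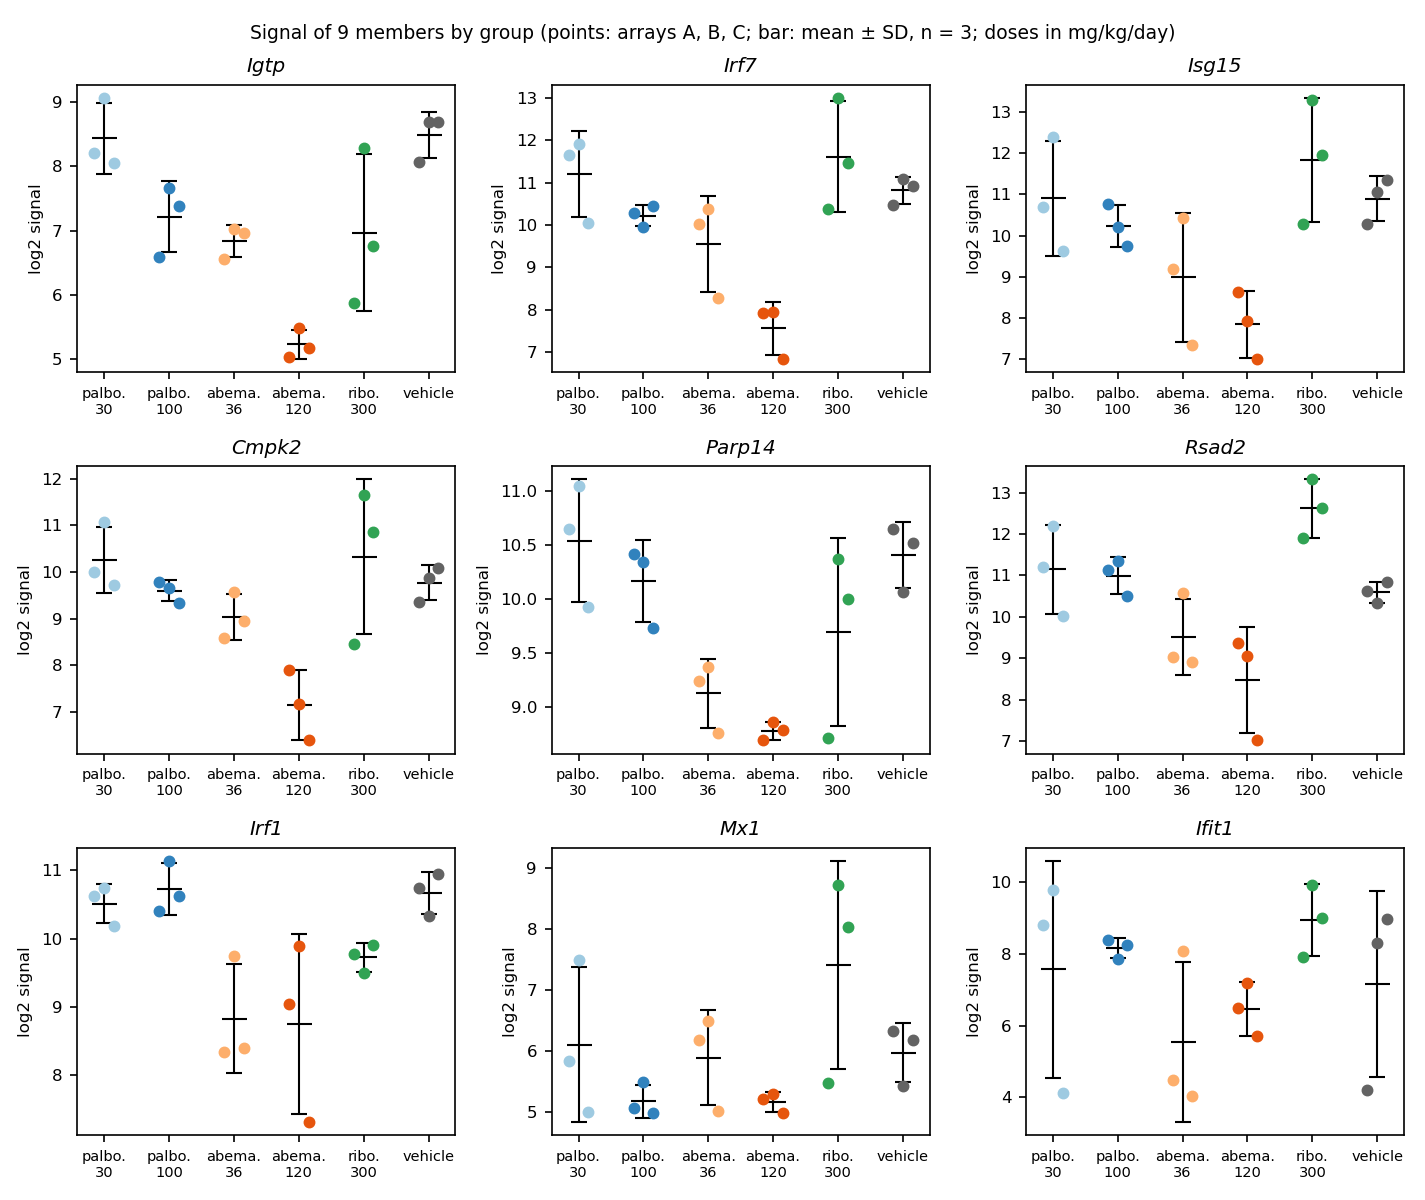
Log2 signal of 9 members in each group (coloured points, arrays A, B and C from left to right; black bars, mean ± SD, n = 3 arrays). Igtp, Irf7, Isg15, Cmpk2, Parp14, Rsad2 and Irf1 have all abemaciclib 120 arrays below all vehicle arrays, as Mx1 does by a narrower gap, while Ifit1 spreads over 4.20 to 8.98 within vehicle itself.

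Markers of immune cells and of RNA quality moved with this fall. Of 10 T cell markers, 6 fell against vehicle with abemaciclib 120, and the mean level of the list was 5.07 to 5.53 with abemaciclib 120 and 6.46 to 6.74 with vehicle. Of 7 NK and cytotoxic cell markers, 5 fell, and their mean level was 4.47 to 5.11 with abemaciclib 120 and 7.19 to 7.32 with vehicle. Of 9 macrophage and dendritic cell markers, 6 fell, with a mean level of 4.56 to 5.10 with abemaciclib 120 and 5.67 to 6.34 with vehicle. In that list 1 marker, Cd14, was higher at an unadjusted p under 0.05. Its signals were 5.81, 5.66 and 5.69 with abemaciclib 120, against 4.94, 5.10 and 4.82 with vehicle. The T cell markers Cd3d, Cd3e and Cd8a, the granzyme genes Gzma and Gzmb, and Csf1r, Itgax and Clec9a of myeloid cells were among those that fell, and on a signal scale with no true zero none could be called absent. Of the epithelial markers 0 of 10 passed in either direction in limma, with 1 higher and 1 lower at an unadjusted p under 0.05. Of the other cell lists, 1 of 7 jejunal enterocyte markers and 1 of 4 endothelial markers fell, and 0 of 4 B and plasma cell, 0 of 4 neutrophil, 0 of 6 fibroblast and 0 of 5 smooth muscle markers passed in limma. Before adjustment, at p under 0.05, 5 of 7 jejunal enterocyte markers and 1 endothelial marker were lower, 1 neutrophil marker was higher and 0 markers of the B and plasma cell, fibroblast and smooth muscle lists differed. Degraded RNA raises the signal of the beta-actin control read near its 3′ end over that read near its 5′ end, and on the log2 scale this gap was 0.86 to 1.05 with abemaciclib 120 and 0.57 to 0.79 with vehicle, without overlap. With that gap as a covariate in limma, 7 members fell, where 11.2% of all genes passed in either direction. Rsad2 and Isg15 did not pass in that fit, with differences of -2.00 and -2.65 (adjusted p = 0.0944 and 0.0914). The part of the immune cell markers in the fall of the members was not tested. In bulk tissue of this kind, fewer cells of a type and less RNA per cell cannot be told apart.

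**Figure D3:**
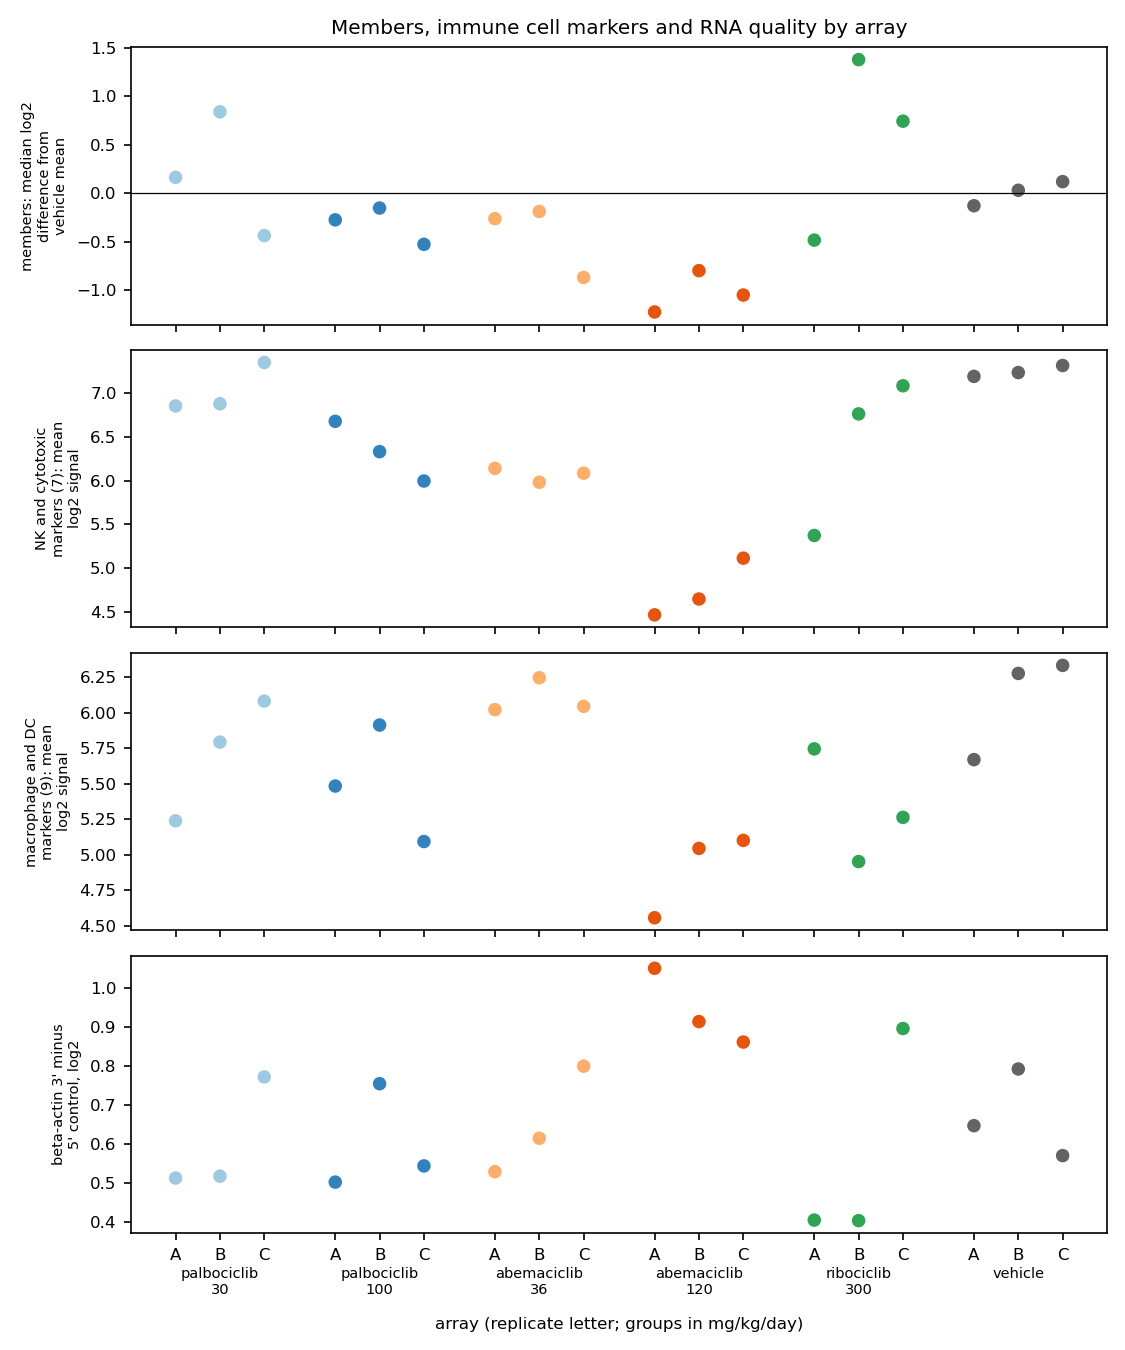
For each array, from top to bottom, the members' median log2 difference from the vehicle mean, the mean log2 signal of 7 NK and cytotoxic markers and of 9 macrophage and dendritic cell (DC) markers, and the log2 difference of the 3′ and 5′ beta-actin controls, with colours by group. Abemaciclib 120 arrays are the lowest for the NK and cytotoxic markers (4.47 to 5.11), for the macrophage and DC markers they lie at 4.56 to 5.10 with ribociclib array B (4.95) and palbociclib 100 array C (5.09) among them, and ribociclib array A is low for the members (-0.48) and the NK and cytotoxic markers (5.37).

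Promoter sequence from RefSeq (assembly GRCr8, 250 bases before to 50 after each gene's start) was at hand for 34 of the 42 members. The patterns searched on both strands were the ISRE core GAAANNGAAA and the palindromic GAS core TTCNNNGAA, in which N stands for any base. Matches to the ISRE and GAS cores overlapped in 1 member window. The ISRE core was present in 21 of 34 member windows and in 3.92% of the 33469 windows of all genes. Among members with a window it was present in 10 of the 16 that fell with abemaciclib 120 and in 11 of the 18 that did not pass. The GAS core was present in 10 of 34 member windows and 8.87% of all windows, with 7 of the 16 that fell and 3 of the 18 others. The windows of 80 bases below belong to the members with the smallest p for abemaciclib 120 that hold an ISRE core, and were picked after these values were seen. Capitals mark the matches to either core, which are descriptions and not shown to be bound sites. In Igtp and Parp14 a GAS core lies just upstream of the ISRE core, and in both genes the first base of one is 11 bases from the first base of the other. The other 4 windows hold no GAS core, and that of Ifi44l holds 2 ISRE cores. The windows lie at chr10:42874909-42874988 (plus strand) for Igtp, chr1:205800048-205800127 (minus) for Irf7, chr11:78408023-78408102 (plus) for Parp14, chr20:4656991-4657070 (minus) for Psmb8, chr2:243328597-243328676 (plus) for Ifi44l and chr6:48788223-48788302 (minus) for Rsad2, and each is written 5′ to 3′ on the gene's strand.
Igtp: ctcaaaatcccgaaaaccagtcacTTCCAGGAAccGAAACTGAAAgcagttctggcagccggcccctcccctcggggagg
Irf7: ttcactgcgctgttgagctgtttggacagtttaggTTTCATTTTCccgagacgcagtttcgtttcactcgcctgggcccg
Parp14: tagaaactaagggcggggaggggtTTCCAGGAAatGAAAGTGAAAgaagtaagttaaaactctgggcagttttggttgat
Psmb8: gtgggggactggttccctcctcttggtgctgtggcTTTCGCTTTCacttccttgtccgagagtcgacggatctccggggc
Ifi44l: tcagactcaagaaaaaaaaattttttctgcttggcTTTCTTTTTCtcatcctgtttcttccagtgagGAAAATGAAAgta
Rsad2: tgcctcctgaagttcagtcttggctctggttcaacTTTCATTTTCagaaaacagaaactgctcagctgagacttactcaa

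The lower abemaciclib dose asked whether a part of this difference was present at 36 mg/kg/day. Against vehicle, 0 of 42 members passed in limma, where 1.58% of all genes fell. Before adjustment, 9 members were lower and 0 higher at p under 0.05, where 8.88% of all genes were lower and 4.91% higher. The members' median difference was -0.45, against 0.01 for all genes, and 10 members had all 3 arrays below vehicle, as did 12.3% of all genes. Irf1 came nearest to passing. Its signals were 8.34, 9.75 and 8.41 with abemaciclib 36, against 10.74, 10.34 and 10.94 with vehicle, a difference of -1.84 (SE 0.49, adjusted p = 0.061). All 3 arrays lay below vehicle, with array B the nearest to it. Igtp had 6.56, 7.02 and 6.96 with abemaciclib 36 (difference from vehicle -1.64, adjusted p = 0.0771) and Parp14 had 9.25, 9.37 and 8.76 (difference -1.29, adjusted p = 0.0818). Both genes stood below vehicle on all arrays. Irf7, Isg15 and Irf9 had differences of -1.27, -1.91 and -1.04, with adjusted p of 0.394, 0.289 and 0.252. Stat2, Mx1, Cxcl10 and Psmb8 had differences of 0.04, -0.08, 0.74 and -0.08, and their arrays overlapped vehicle. Array C was the lowest of its group for 28 of the 42 members, where 21.4% of all genes were lowest there. Without array B, 1 of 42 members fell, Irf1 (adjusted p = 0.0191). In that fit 3.73% of all genes passed in either direction, so this count was near the share over all genes. The members' median in that fit was -0.68. Without array C that median was -0.20. Immune markers moved here too. Of the T cell markers 3 of 10 fell, of the NK and cytotoxic markers 2 of 7 fell, and of the macrophage and dendritic cell markers 0 of 9 fell in limma, with 2 lower and 1 higher at an unadjusted p under 0.05. The NK and cytotoxic markers averaged 5.98 to 6.14 with abemaciclib 36 and 7.19 to 7.32 with vehicle, and their part in the members' values was not tested.

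Between the abemaciclib doses, which shared 1 vehicle formulation, 1 member passed. Igtp was lower at 120 than at 36 mg/kg/day, with a difference of -1.61 (SE 0.46, adjusted p = 0.0403). Of all genes 2.77% were lower, so the count of 1 of 42 members was near the share over all genes. At an unadjusted p under 0.05, 10 members were lower and 0 higher, where 8.6% of all genes were lower and 12.4% higher, and the median difference was -0.61. Irf7 had a difference of -2.00 (SE 0.63, adjusted p = 0.0642) and Psmb8 of -0.79 (SE 0.24, adjusted p = 0.0542). For Irf7 the arrays of the 2 doses did not overlap. Irf1, in contrast, differed between the doses by -0.08, with a standard error of 0.49. Isg15, Mx1, Stat2, Irf9 and Cxcl10 had differences of -1.14, -0.72, -0.60, 0.11 and -0.07 and did not pass. The call of Igtp was lost in each of the 6 fits that left out 1 array, with an adjusted p of up to 0.159 without abemaciclib 120 array A. The count was 0 without abemaciclib 120 array A or abemaciclib 36 array A, and 2 without abemaciclib 36 array C, where Irf7 passed (adjusted p = 0.0143). Of all genes, 2.79%, 3.4% and 9.45% passed in either direction in these fits, in that order. The members' counts were near or below those shares. Between these doses 3 of 10 T cell, 3 of 7 NK and cytotoxic, and 5 of 9 macrophage and dendritic cell markers were lower at 120 mg/kg/day. The beta-actin gap was 0.86 to 1.05 at 120 and 0.53 to 0.80 at 36 mg/kg/day, without overlap. The part of these markers in the members' difference was not tested. With the gap as a covariate, Igtp had a difference of -1.57 (adjusted p = 0.162).

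With ribociclib at 300 mg/kg/day the arrays disagreed among themselves. Against vehicle 0 of 42 members passed in limma, where 0.999% of all genes rose. At an unadjusted p under 0.05, 8 members were higher and 1 lower, where 7.29% of all genes were higher and 12.9% lower. The median difference was 0.56 for the members. All 3 ribociclib arrays lay above vehicle for 4 of 42 members, as for 10.4% of all genes, so this count was near the share over all genes. The 4 were Oasl, Ifit2, Rsad2 and Bst2, listed here among the antiviral effectors and named after their values were seen. All 12 antiviral effectors had estimates above 0, with a median of 1.30. All 3 members listed as interferon-inducible GTPases, Igtp, Gbp2 and Gbp4, had estimates below 0, with a median of -0.53. The GTPase Mx1 and its relative Mx2 are counted among the effectors, so this sets 2 lists apart and not GTPases as a class.

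Ifit2, a protein that binds viral RNA and restricts translation, had 5.01, 6.71 and 7.34 with ribociclib, against 4.40, 4.35 and 4.57 with vehicle. All ribociclib arrays lay above vehicle, array A the least, with a difference of 1.91 (SE 0.57, adjusted p = 0.0729). Rsad2 had 11.91, 13.32 and 12.64 with ribociclib, against 10.62, 10.32 and 10.84 with vehicle (difference 2.03, SE 0.61, adjusted p = 0.0761). No array overlapped vehicle. Igtp ran the other way, at 5.87, 8.28 and 6.76 with ribociclib, against 8.08, 8.70 and 8.69 with vehicle (difference -1.52, SE 0.46, adjusted p = 0.0757). Array B reached into the vehicle range and array A was near the abemaciclib 120 arrays. Irf7 had 10.39, 13.01 and 11.46 (difference from vehicle 0.79, adjusted p = 0.489), Isg15 had 10.27, 13.29 and 11.96 (0.94, adjusted p = 0.53), and Mx1 had 5.48, 8.71 and 8.03 (1.44, adjusted p = 0.247). In each of these, arrays B and C lay above all vehicle arrays and array A did not. Irf1 had 9.78, 9.5 and 9.91, all below vehicle (difference -0.94, adjusted p = 0.288), and Psmb8 had a difference of -0.50 (adjusted p = 0.25), also with all arrays below. Irf9, Stat2 and Cxcl10 had differences of 0.07, 0.60 and 1.15 and overlapped vehicle.

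**Figure D4:**
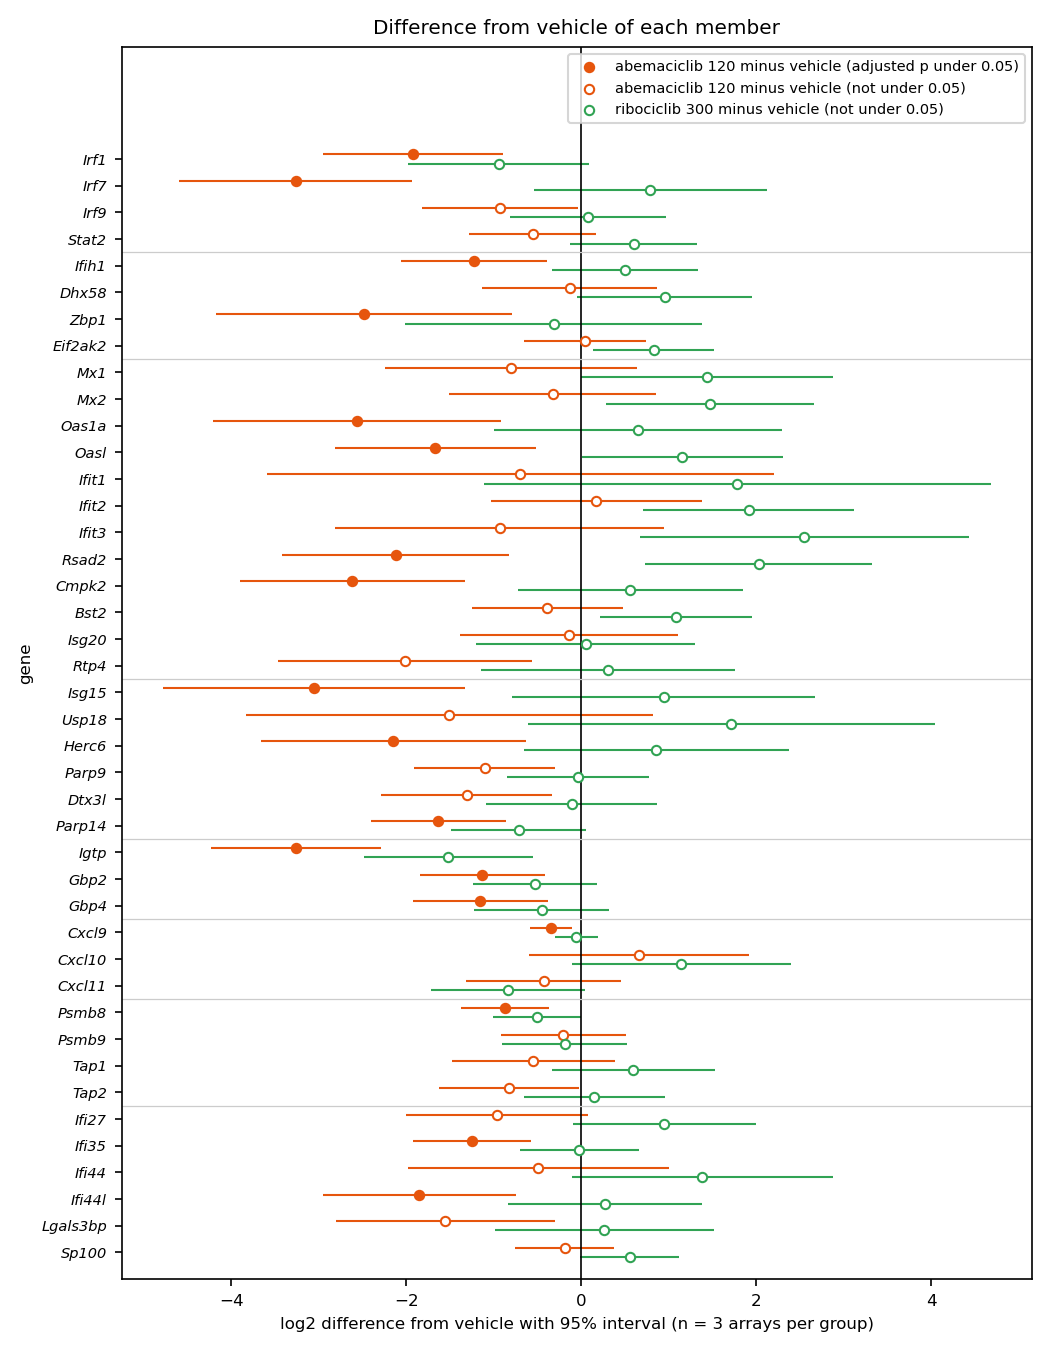
Log2 difference from vehicle of each member (rows, grouped by role) for abemaciclib 120 (orange) and ribociclib 300 (green), with 95% intervals from limma and n = 3 arrays per group. The 18 filled points, all abemaciclib 120 and all below 0, passed at an adjusted p under 0.05, and the ribociclib points of the antiviral effectors all lie above 0 with open symbols.

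Array B held the highest ribociclib signal for 32 of the 42 members and array A the lowest for 35, where 36.2% and 42.1% of all genes did. The median SD of a member within the group was 1.03 with ribociclib, against 0.26 over all genes. It was 0.26 in vehicle, against 0.15 over all genes there. Signal differed by more than 2 log2 units between ribociclib arrays for 21 members, as for 3.5% of all genes, and between vehicle arrays for 2 members, as for 0.331%. Without ribociclib array A, 12 members rose and the members' median was 1.07, where 9.26% of all genes passed in either direction. Without array B, 1 member fell and that median was 0.05, where 3.46% of all genes passed. The NK and cytotoxic markers averaged 5.37, 6.76 and 7.08 in ribociclib arrays A, B and C, and 7.19 to 7.32 in vehicle, and the beta-actin difference was 0.41, 0.40 and 0.90 in those arrays, against 0.57 to 0.79 in vehicle. Against vehicle, 3 of 10 T cell, 1 of 7 NK and cytotoxic, and 3 of 9 macrophage and dendritic cell markers fell with ribociclib, and the mean level of the macrophage and dendritic cell list was 4.95 to 5.75, against 5.67 to 6.34 in vehicle. The part of these markers in the spread of the members was not tested, and whether the arrays differed in days of dosing is not given.

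Palbociclib differed from vehicle for 0 of 42 members at either dose in limma, as for 0% of all genes at 100 mg/kg/day and 0% at 30 mg/kg/day. At an unadjusted p under 0.05, 2 members were lower and 0 higher at 100 mg/kg/day, where 4.68% of all genes were lower and 2.52% higher, so the members' count was near the share over all genes. At 30 mg/kg/day 0 members passed that threshold either way, where 1.44% of all genes were lower and 1.07% higher. The median difference was 0.18 at 30 mg/kg/day and -0.34 at 100 mg/kg/day. Igtp had 6.60, 7.66 and 7.39 at 100 mg/kg/day, against 8.08, 8.70 and 8.69 with vehicle. All arrays were lower, with a difference of -1.27 (SE 0.46, adjusted p = 0.634), and Gbp2 had a difference of -0.83 (SE 0.34, adjusted p = 0.653). Irf7, Isg15 and Irf1 had differences of -0.60, -0.66 and 0.05 at 100 mg/kg/day, and Irf7 and Irf1 had 0.38 and -0.16 at 30 mg/kg/day. Irf9, Stat2, Mx1, Cxcl10 and Psmb8 had -0.46, 0.30, -0.80, 0.56 and -0.11 at 100 mg/kg/day, and 0.28, 0.18, 0.13, -0.46 and 0.06 at 30 mg/kg/day. Ifi27 averaged 11.06 at 30 mg/kg/day, 9.15 at 100 mg/kg/day and 10.13 with vehicle. At 30 mg/kg/day and with vehicle, Gbp2 averaged 5.56 and 6.08, Ifi44 7.23 and 6.25, and Isg15 10.90 and 10.90. At 30 mg/kg/day the arrays spread apart, though less than with ribociclib. Array B held the highest signal for 36 of 42 members, where 23.6% of all genes were highest there, and array C the lowest for 33, where 36.3% were. Usp18, for example, had 7.65, 10.27 and 6.00 at 30 mg/kg/day, against 7.31, 7.66 and 7.61 with vehicle. Array B stood above and array C below every vehicle array. The NK and cytotoxic marker level of array B, 6.88, lay between those of arrays A (6.85) and C (7.35). At 100 mg/kg/day these markers averaged 6.00 to 6.68, against 7.19 to 7.32 in vehicle, and T cell markers 5.80 to 6.09, against 6.46 to 6.74. At that dose 4 of 10 T cell and 4 of 7 NK and cytotoxic markers were lower at an unadjusted p under 0.05. So were 4 of 9 macrophage and dendritic cell markers. In these lists 0 were higher and 0 passed in limma, and their part in the members' values was not tested. The members' median at 30 mg/kg/day was -0.11 without array B and 0.61 without array C, and at 100 mg/kg/day it was -0.22 without array C.

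Between the palbociclib doses, 0 of 42 members passed in limma, as for 0% of all genes, with a median difference of -0.40. At an unadjusted p under 0.05, 2 members were lower and 0 higher, where 2.12% of all genes were lower and 2.23% higher. Ifi27, an interferon-induced protein of membranes, had 9.33, 8.95 and 9.17 at 100 mg/kg/day, against 11.16, 11.90 and 10.12 at 30 mg/kg/day (difference -1.92, SE 0.49, adjusted p = 0.997). The arrays did not overlap, and the vehicle arrays, at 9.98, 11.37 and 9.05, spanned most of both ranges. Igtp and Ifi44l had differences of -1.23 and -1.03 (adjusted p = 0.997) between these doses, also with no overlap. Irf7, Irf9, Stat2 and Irf1 differed by -0.98, -0.74, 0.12 and 0.21, and Isg15, Mx1, Cxcl10 and Psmb8 by -0.66, -0.93, 1.02 and -0.17. The members' median was -0.14 without array B and -0.76 without array C of the lower dose.

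The compounds were also set against each other at their upper doses, which are not matched, so these contrasts say that groups differ and not that compounds do at equal dose. Adjusted p-values are over the genes of each contrast. Between abemaciclib 120 and ribociclib 300, given in the same formulation, 23 of 42 members were lower with abemaciclib 120 and 0 higher in limma, where 10% of all genes were lower. The median difference was -1.60, against -0.05 for all genes, and 33 members were lower at an unadjusted p under 0.05, as were 18% of all genes. Of the 12 antiviral effectors 10 were lower, of the ISG15, ubiquitin and ADP-ribosylation group 4 of 6, and of the antigen processing genes and the CXCR3 chemokines none, with 2 of 4 and 1 of 3 lower at an unadjusted p under 0.05. Rsad2 had 9.37, 9.04 and 7.02 with abemaciclib 120 and 11.91, 13.32 and 12.64 with ribociclib, a difference of -4.14 (SE 0.61, adjusted p = 0.00047, 17.7-fold lower). Irf7 had a difference of -4.06 (SE 0.63, adjusted p = 0.000611) and Isg15 of -4.0 (SE 0.82, adjusted p = 0.0027). All abemaciclib 120 arrays of these 3 genes lay below all ribociclib arrays. Cmpk2, Oasl, Ifih1, Herc6 and Oas1a were lower by differences of -3.18, -2.82, -1.73, -3.01 and -3.22. Mx1 and Stat2 were lower as well, at -2.25 and -1.16, while Irf1 (-0.98, adjusted p = 0.144), Irf9 (-1.0), Cxcl10 (-0.48) and Psmb8 (-0.37) did not pass. Of the 23 members, 10 passed in all 6 fits that left out 1 array. The count was 14 without abemaciclib 120 array A, 15 without array C, 11 without ribociclib array B and 14 without ribociclib array C. Of all genes, 14.9%, 20%, 19.4% and 17.1% passed in either direction in these fits. With the RNA quality covariate the members' count was 5, where 9.9% of all genes passed in either direction, a share near that of the members. Immune markers differed here too, with 5 of 10 T cell and 4 of 7 NK and cytotoxic markers lower with abemaciclib 120 in limma. Of the macrophage and dendritic cell markers 0 of 9 passed. The part of the immune markers in the members' difference was not tested.

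Between abemaciclib 120 and palbociclib 100, 10 of 42 members were lower with abemaciclib 120 and 0 higher, where 6.86% of all genes were lower, with a median difference of -0.75. They were Irf1, Irf7, Zbp1, Oasl, Rsad2, Cmpk2, Parp14, Igtp, Psmb8 and Ifi35. Irf7 had 7.92, 7.94 and 6.84 with abemaciclib 120, against 10.27, 9.96 and 10.44 with palbociclib 100 (difference -2.66, SE 0.63, adjusted p = 0.00805). No array overlapped. Igtp differed by -1.98 (adjusted p = 0.00715) and Rsad2 by -2.51 (adjusted p = 0.00986), Isg15 by -2.40 (SE 0.82, adjusted p = 0.0521) and Mx1 by -0.01 (SE 0.68). Irf1 and Psmb8 were lower by differences of -1.97 and -0.76, and Irf9, Stat2 and Cxcl10, at -0.47, -0.86 and 0.10, did not pass. The members Irf1, Irf7 and Igtp passed in every fit that left out 1 array. The count was 5 without palbociclib 100 array A, 6 without its array B, 6 without abemaciclib 120 array A, 6 without array B and 5 without array C. Of all genes, 10.2%, 14%, 9.45%, 18.6% and 13% passed in either direction in these fits. Most of the members' counts were near or below those shares. With the RNA quality covariate the members' count was 1, where 6.82% of all genes passed in either direction.

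Between ribociclib 300 and palbociclib 100, 0 of 42 members passed in limma, where 0.823% of all genes passed in either direction, with a median difference of 0.76. Before adjustment, 13 members were higher and 0 lower at p under 0.05, where 6.13% of all genes were higher and 8.64% lower. Ifi27 had 10.99, 11.43 and 10.83 with ribociclib, against 9.33, 8.95 and 9.17 with palbociclib 100 (difference 1.94, SE 0.49, adjusted p = 0.0675). Bst2, the protein tetherin that holds virus particles at the cell surface, differed by 1.57 (adjusted p = 0.0707), and Ifit2 by 2.16 (adjusted p = 0.0739). For all 3 genes the ribociclib arrays lay above the palbociclib 100 arrays. Irf7, Isg15 and Mx1 had differences of 1.39, 1.60 and 2.24, with array A of ribociclib overlapping palbociclib 100. Irf9, Stat2, Cxcl10, Psmb8 and Irf1 had 0.53, 0.30, 0.58, -0.39 and -1.0, and for Irf1 and Psmb8 all ribociclib arrays were the lower ones. Without ribociclib array A, 13 members passed, where 4.51% of all genes did, with a median of 1.37, and without ribociclib array B the median was 0.26.

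The other genes of the pathway, 97 listed by role, were represented by 64 measured genes. Against vehicle with abemaciclib 120, 18 of them fell and 3 rose, with a median difference of -0.29. Of all genes, 8.41% fell and 9.6% rose, so the share that rose was smaller among these 64 than among all genes. By role, of 6 receptors 2 fell, of 9 signalling genes 1 fell and 1 rose, of 10 sensing and induction genes 3 fell and 2 rose, of 26 further induced genes 7 fell, and of 10 MHC class I genes 5 fell. The ligands Ifnb1, Ifng and Ifnk were the only measured interferons, all at dim signals (means of 4.13, 3.39 and 3.66 with abemaciclib 120 and 4.13, 3.46 and 3.73 with vehicle), and 0 of 3 passed in limma, with 0 at an unadjusted p under 0.05. Ifnar1, a subunit of the receptor of type I interferons, averaged 5.80 ± 0.16 with abemaciclib 120 and 7.47 ± 0.20 with vehicle (SD, n = 3 each), a difference of -1.67 (SE 0.23, adjusted p = 0.000168). It was also lower with abemaciclib 36 (-1.31, adjusted p = 0.00853) and with ribociclib 300 (-1.14, adjusted p = 0.0134), comparisons that share the vehicle arrays. Jak2, a kinase of the interferon gamma receptor, fell by 1.23 (adjusted p = 0.00318), and Ifngr2, a subunit of that receptor, fell by 1.16 (adjusted p = 0.00412). B2m, the light chain of MHC class I, fell by 0.53 (adjusted p = 0.00371). Ifitm1, which restricts virus entry, averaged 7.36 ± 1.41 with abemaciclib 120 and 9.66 ± 0.25 with vehicle (SD, n = 3 each), and Gbp7, a further guanylate-binding protein, fell by 2.12 (adjusted p = 0.00463). The 3 that rose were Ptpn2, a phosphatase that acts on JAK and STAT proteins (0.64, adjusted p = 0.0195), Ticam1, an adaptor of Toll-like receptors (1.04, adjusted p = 0.0209), and Irf3, a factor that induces interferon (0.90, adjusted p = 0.0228), named after their values were seen. With ribociclib 300 against vehicle 2 of the 64 fell, Ifnar1 and Irf8, where 2.74% of all genes fell, and with abemaciclib 36 1 fell, Ifnar1, where 1.58% of all genes did. Both counts were near those shares. With either palbociclib dose 0 passed in limma, with 3 lower at 100 mg/kg/day and 0 at 30 mg/kg/day at an unadjusted p under 0.05.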

How the data were processed

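RNA of jejunal mucosal scrapings from 18 rat samples was read on Affymetrix arrays. The deposited values are log2 signals, made with RMA per the submitters' processing notes, and the submitters' processing notes also name Transcriptome Analysis Console and Affymetrix Expression Console as tools. RMA sets all arrays to a like distribution, which can hide a shift of the whole array. Of 31099 probe sets, 20826 had 1 symbol, 436 several and 9780 none in the platform annotation, and 57 were controls. The brightest probe set by mean over all arrays stood for each of 14217 genes. R 4.3.3 and limma 3.58.1 fitted 1 model of all 6 groups with 12 residual degrees of freedom, moderated with trend, and p-values were adjusted by Benjamini-Hochberg over all genes in each of 10 comparisons. With 3 arrays a group, the smallest p an exact permutation test allows is 0.1, so none was used. No 2 arrays held identical values, and array correlations were 0.918 to 0.993. Figures used matplotlib 3.10.9.

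Members and lists were chosen with earlier results of these data known. By rule, each comparison gives up to 8 members that passed with the smallest p, or the 3 with the smallest p where fewer passed, and always Irf7, Irf9, Stat2, Irf1, Isg15, Mx1, Cxcl10 and Psmb8. Of the further pathway genes, the 6 with the smallest p for abemaciclib 120 against vehicle are given. Further genes were named after their values were seen. Array letters are shared by the groups, and same-letter deviations from the group means correlated with vehicle at -0.31 to 0.36. The letters were not treated as pairs, and whether a letter marks a shared batch was not tested. The scripts were tested on simulated data. The alternatives tried were quantile normalization, median centring, no dim genes, other handling of probe sets, a replicate block, an RNA quality covariate, array weights, only the groups compared, no trend, and leaving out each array.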

Additional observations from a re-analysis of the deposited data

Results flagged for a closer look

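Each abemaciclib 120 array lay below and each ribociclib 300 array above the vehicle mean for 4 members, as for 4.03% of all genes, and 0 members lay the other way round, as 5.02% of all genes did. These 4 were picked for lying on opposite sides of the vehicle mean, so their differences are a description with no test. The difference of abemaciclib 120 minus ribociclib 300 was -2.82 log2 units for Oasl, -3.48 for Ifit3, -4.14 for Rsad2 and -1.92 for Ifi27. The doses are not matched.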

How the results depend on the processing

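Counts are members passing in limma, and medians are members' log2 differences. For abemaciclib 120 against vehicle the count of 18 was 7 with the RNA quality covariate, 4 to 11 with 1 array left out, and 20 with the replicate block. For abemaciclib 36 against vehicle the count of 0 was 2 with the replicate block, 8 with array weights, 2 with only the groups compared and 0 to 1 with 1 array left out. For ribociclib 300 against vehicle the count of 0 was 4 (3 higher and 1 lower) with the replicate block, 6 with array weights and 0 to 12 with 1 array left out. With array weights it was 1 for palbociclib 100 and 6 for palbociclib 30 against vehicle, and 12 between the palbociclib doses, where the median was -0.86 with weights and -0.76 to -0.14 with 1 array left out. Between the abemaciclib doses the count of 1 was 2 with quantile normalization, 5 with centring, 2 without dim genes, 0 with the mean of probe sets, 2 with the replicate block, 0 with the covariate, 4 with weights, 2 with only the groups compared and 0 to 2 with 1 array left out. In that order, 7.46%, 9.24%, 9.86%, 7.47%, 7.69%, 3.07%, 8.38%, 2.17% and 2.79% to 9.45% of all genes passed in either direction. Most of the members' counts were near or below those shares. The median was -0.79 with centring, -0.42 with the covariate and -0.76 to -0.41 with 1 array left out. For abemaciclib 120 against ribociclib 300 the count of 23 was 37 with centring, 5 with the covariate, 9 with only the groups compared and 11 to 32 with 1 array left out, and the median was -1.88 with centring, -1.29 with the covariate and -1.88 to -1.05 with 1 array left out. For abemaciclib 120 against palbociclib 100 the count of 10 was 1 with the covariate, 18 with only the groups compared and 5 to 7 with 1 array left out, and the median was -0.97 with centring, -0.55 with the covariate and -0.88 to -0.64 with 1 array left out. For ribociclib 300 against palbociclib 100 the count of 0 was 3 with the replicate block, 4 with weights and 0 to 13 with 1 array left out. The F test count of 15 was 3 with the covariate and 35 with weights. For the F test in these settings the share over all genes is not given here. Those counts are therefore not read as a result about the members. Shares of all genes passing in either direction were 11.2%, 9.9% and 6.82% with the covariate for abemaciclib 120 against vehicle, ribociclib 300 and palbociclib 100, and 49.1% with centring against ribociclib 300. With the replicate block they were 19.1%, 2.81% and 4.64% for abemaciclib 120, abemaciclib 36 and ribociclib 300 against vehicle. For ribociclib 300 against palbociclib 100 they were 1.37% with the block and 4.7% with weights. With weights they were 10.9%, 10%, 2.8% and 8.77% for abemaciclib 36, ribociclib 300, palbociclib 100 and palbociclib 30 against vehicle, and 2.55% between the palbociclib doses. With only the groups compared they were 1.5% for abemaciclib 36 against vehicle, 9.69% for abemaciclib 120 against ribociclib 300 and 17.6% against palbociclib 100. With 1 array left out they were 9.49% to 17.6% for abemaciclib 120 against vehicle, 14.9% to 33.6% against ribociclib 300 and 9.45% to 18.6% against palbociclib 100. They were then 0.324% to 3.73% for abemaciclib 36 and 0.844% to 9.26% for ribociclib 300 against vehicle, and 0.12% to 4.51% for ribociclib 300 against palbociclib 100. The cause was not tested. The letters are not known to pair samples, so the replicate block is an alternative only.

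Centring moved all differences by -0.11 for abemaciclib 120, 0.18 for ribociclib 300, 0.14 for palbociclib 30 and 0.11 for palbociclib 100 against vehicle, by -0.18 between the abemaciclib doses, by -0.28 for abemaciclib 120 against ribociclib 300 and by -0.22 for it against palbociclib 100. The share of called genes that were higher was 26.7% and became 57.9% centred for ribociclib 300 against vehicle, 24% and 36.5% for abemaciclib 36 against vehicle, 63.5% and 40.6% between the abemaciclib doses, 63.2% and 24.6% for abemaciclib 120 against ribociclib 300, and 62.5% and 28.4% for it against palbociclib 100. Among values of single members under the alternatives, 1679 kept their side of the threshold and direction, 68 newly passed and 59 no longer passed, with 50 values that passed in neither setting turning sign. Dim members such as Cxcl9 and Gbp4 are limited by signal over background.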

Other observations

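Ifit1 was low on some arrays of several groups. It read 4.03 to 4.50 in array C of palbociclib 30, arrays A and C of abemaciclib 36 and array A of vehicle, and 5.70 to 9.92 in the other arrays. Among those other arrays the abemaciclib 120 arrays, at 6.49, 7.20 and 5.70, were the lowest. Of the 10 members with several probe sets, some gave like values for abemaciclib 120 minus vehicle, as Cmpk2 (-2.61 and -2.64) and Parp14 (-1.63 and -1.60). Others differed in size or sign. Igtp had -3.26 and -1.81, Stat2 -0.56 and -0.14, Irf9 -0.93 and -0.59, and Ifit2 0.17 and -0.15. For ribociclib 300 minus vehicle, Mx2 had 1.47 and 0.15, Tap1 0.60 and 0.01, and Irf9 0.07 and 0.53. In each pair the brighter probe set, which stands for the gene in the text above, comes first.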
